A study of Mus musculus with 8 samples.

Results

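Livers from mice given carbon tetrachloride (CCl4) for 8 weeks were compared with untreated livers on microRNA (miRNA) array cards, as the late stage of a fibrosis time course. The comparison rests on 4 cards, 2 from the 8-week group and 2 from the untreated group, and covers the 186 assays that gave a value on all 4 of them out of 381 listed. The mice of both groups were female C57B6, 4 weeks old when treatment began. CCl4 was diluted in corn oil and given by intraperitoneal injection. The labels give its dose as 1 mg/kg and the study's methods as 1 ml/kg with 2 injections a week, a discrepancy that the sources used here do not settle. The labels list no treatment for the untreated group, name no corn oil injection for it, and do not say at what age its livers were taken, so that age at collection and injection cannot be told apart from CCl4. They also do not say whether the 2 replicates of a group were separate mice, and the p-values below measure only the spread between cards, which may be technical. Other mice of the course received CCl4 for 1 or 4 weeks, with 2 cards each, and are used where the 8-week levels are set beside them.

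miRNAs are short RNAs that bind messenger RNAs and lower their translation and stability, and bases 2 to 8 of a miRNA, the seed, carry most of the pairing that selects the targets. CCl4 is converted to a radical by cytochrome P450 in hepatocytes around the central vein and kills them, and repeated doses lead to inflammation, activation of stellate cells and collagen scars. Hepatocytes make most of the RNA of a liver, and stellate cells, endothelial cells, bile duct cells and leukocytes contribute the rest. In RNA from whole liver, fewer cells of a type and less RNA per cell cannot be told apart.

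Every well of a card runs quantitative PCR for a single small RNA. The readout is the threshold cycle (Ct), the number of cycles needed to bring the fluorescence to a fixed value. Levels are given on a log2 scale, where 0 is the average Ct of that card across the 168 assays determined on all 8 cards, and a level higher by 1 is a Ct lower by 1 cycle. Levels of different assays are not compared, since assays differ in efficiency. The 4 cards had a Ct for 213 to 226 assays, and their mean Ct over the 168 assays was 29.0 and 28.6 without treatment and 28.03 and 29.48 at 8 weeks. The 8-week cards thus differed by 1.45 cycles before centring. After centring, the median SD of a pair over the 186 assays was 0.28 for the untreated cards and 0.33 for the 8-week cards, and the cards correlated over the 168 assays with r = 0.979 between the untreated cards, 0.971 between the 8-week cards and 0.938 to 0.970 across the groups. With 2 cards on each side, 0.333 is the smallest two-sided p that exact permutation of the labels allows, so single assays were tested with limma over all 8 cards, which pools the spread over groups and assays.

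With that test, 5 of the 186 assays (2.69%) changed at 8 weeks at a Benjamini-Hochberg adjusted p of 0.05. Of these, 4 were higher (2.15%) and 1 was lower (0.538%), and 46 assays had an unadjusted p of 0.05 or less. The 5 mature sequences follow because the tested result turns on them. They are RefSeq's, on the GRCm38.p6 annotation, written 5′ to 3′ with the seed in capitals, and no 2 of the 5 share a seed.
miR-802: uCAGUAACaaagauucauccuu
miR-409-3p: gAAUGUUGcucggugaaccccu
miR-410: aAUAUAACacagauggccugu
miR-34a: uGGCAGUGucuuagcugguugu
miR-184: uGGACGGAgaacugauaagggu

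miR-802, a hepatocyte-enriched miRNA, lay at -0.06 and 0.14 on the untreated cards and at -2.00 and -2.11 on the 8-week cards. Both treated cards were far below both untreated cards, and the cards of each pair lay close together. The level was 4.26-fold lower at 8 weeks (log2 fold change -2.09, 95% interval -2.76 to -1.42, SE 0.28, adjusted p = 0.0200).

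miR-409-3p comes from the Dlk1-Dio3 locus, an imprinted region whose many miRNAs are transcribed from the maternal chromosome and are abundant in embryonic tissue and brain. It lay at -6.65 and -5.12 on the untreated cards and at -2.14 and -2.46 on the 8-week cards. The untreated cards differed between themselves by more than the treated ones, and the pairs were still far apart. This was the largest change among the 186 assays, 12.1-fold higher (log2 fold change 3.59, 95% interval 2.39 to 4.79, SE 0.51, adjusted p = 0.0200). Its mean Ct was 32.9 and the untreated cards were the fainter ones, so its fold starts from a faint signal. miR-410, of the same locus, lay at -6.76 and -6.29 on the untreated cards and at -4.97 and -4.51 on the 8-week cards. It was faint, with a mean Ct of 34.4, and its groups were apart, with a 3.46-fold higher level at 8 weeks (log2 fold change 1.79, SE 0.33, adjusted p = 0.0483).

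miR-34a, a direct transcriptional target of p53 that represses cell cycle genes and Sirt1, lay at -0.97 and -1.10 on the untreated cards and at 0.40 and 0.74 on the 8-week cards. It was 3.05-fold higher (log2 fold change 1.61, SE 0.31, adjusted p = 0.0483), and the pairs were separated by more than the gap within either of them. miR-184, best known from the lens, cornea and epidermis, lay at -5.68 and -6.51 on the untreated cards and at -3.92 and -4.01 on the 8-week cards. Its 8-week cards almost coincided, its untreated cards did not, and the level was 4.39-fold higher (log2 fold change 2.14, SE 0.40, adjusted p = 0.0483). miR-184 was faint too, with a mean Ct of 33.8 and untreated Cts of 34.68 and 35.11.

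These 5 calls rest on few cards. The fit without 1 untreated card kept no call without replicate 1 and only miR-409-3p without replicate 2, and none was kept without either 8-week card. When each card was instead centred on the geometric mean of the Cts of all its determined assays, miR-409-3p was the only assay called. The study's methods name normalization to the geometric mean of each card, without saying of which values, so the 2 may differ. No assay was called by limma in a fit of only the 4 cards compared (35 at an unadjusted p of 0.05 or less), or with Ct 40 in place of undetermined values (36 at that p). No alternative tried turned the sign of any of the 5. Over all alternatives the log2 fold change ran from 2.825 to 4.356 for miR-409-3p and from 1.181 to 2.303 for miR-410. It ran from -2.287 to -1.577 for miR-802, from 1.442 to 2.123 for miR-34a and from 1.721 to 2.648 for miR-184.

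**Figure D1:**
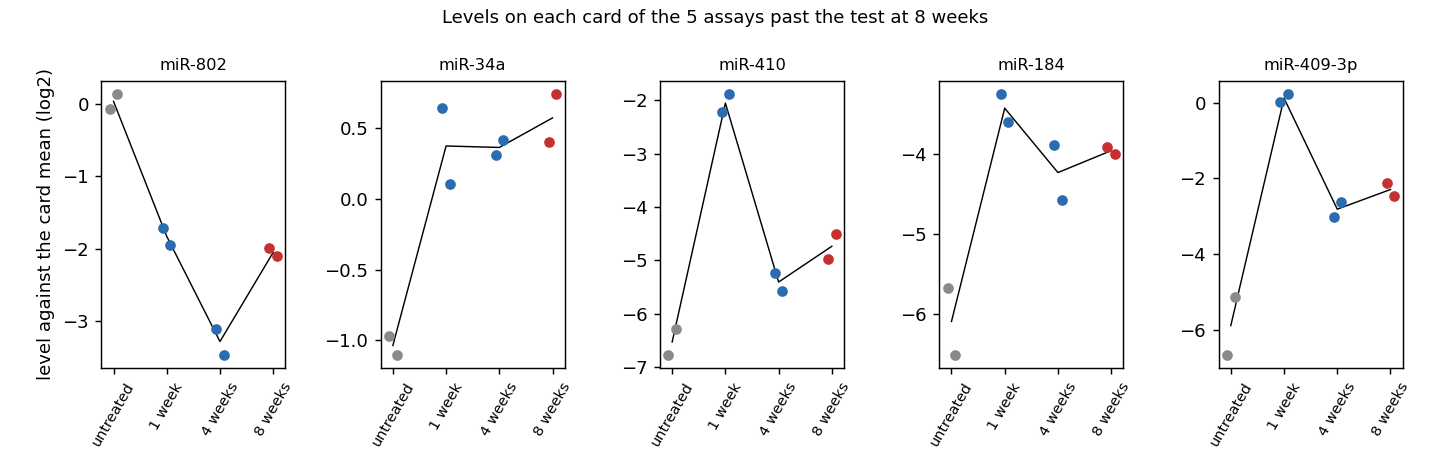
Levels on each card (log2, relative to the card mean over 168 assays) of the 5 assays past the test at 8 weeks, with untreated cards in grey, 1- and 4-week cards in blue, 8-week cards in red and lines through the group means. The vertical scales differ between the plots. The 8-week cards of miR-802 lie near -2, above its 4-week cards, and those of miR-409-3p and miR-410 lie below the 1-week cards.

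The time course places these levels. miR-802 lay at -1.71 and -1.95 at 1 week and at -3.11 and -3.47 at 4 weeks, so its 8-week cards were above the 4-week cards (difference 1.23, 95% interval 0.56 to 1.91, adjusted p = 0.119 for 8 against 4 weeks). miR-409-3p lay at 0.01 and 0.22 at 1 week and at -3.02 and -2.62 at 4 weeks. The difference of 8 weeks from 1 week was -2.41, and it passed the test (adjusted p = 0.0233).

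miR-410 stood at -2.22 and -1.89 at 1 week and at -5.24 and -5.58 at 4 weeks, with an 8-week level below the 1-week level (-2.68, adjusted p = 0.00794). For miR-34a the levels were 0.65 and 0.10 at 1 week and 0.31 and 0.41 at 4 weeks, and all 6 treated cards were above both untreated cards. miR-184 had -3.25 and -3.61 at 1 week and -3.90 and -4.58 at 4 weeks. Its 8-week level differed from that at 4 weeks by 0.27 (95% interval -0.67 to 1.21, adjusted p = 0.755).

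Over all 186 assays the changes at 8 weeks were centred near 0. The median log2 fold change was -0.02, with quartiles of -0.64 and 0.69, and 88 assays were higher and 98 lower. A size of at least 1 was reached by 48 assays, 27 of them higher and 21 lower. The cards of the groups did not overlap for 113 assays (60.8%), of which 51 were higher (27.4%) and 62 lower (33.3%), so lack of overlap is common among these 4 cards and marks no assay by itself. Centring on the control RNAs U6, snoRNA135 and snoRNA202 moved the median to 0.49 and put 129 assays higher and 57 lower, with 81 apart upwards and 21 apart downwards. With that centring the 7 calls were all higher, against 4 higher and 1 lower above. The log2 fold changes below that are smaller than this shift are therefore relative to the mean of the card.

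The direction of change went with the Ct of the assay. Among the 36 assays with a mean Ct below 26 the median log2 fold change was -0.59 and 6 were higher. It was -0.02 for the 65 assays from 26 to 30, 0.39 for the 59 from 30 to 33 and 0.64 for the 26 assays above that. Across the 186 assays, which share the same cards, log2 fold change and mean Ct correlated with Pearson's r = 0.358 and Spearman's rho = 0.349. Assays with a low Ct were thus mostly lower and those with a high Ct mostly higher. The part of the Ct range in any single result was not tested.

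**Figure D2:**
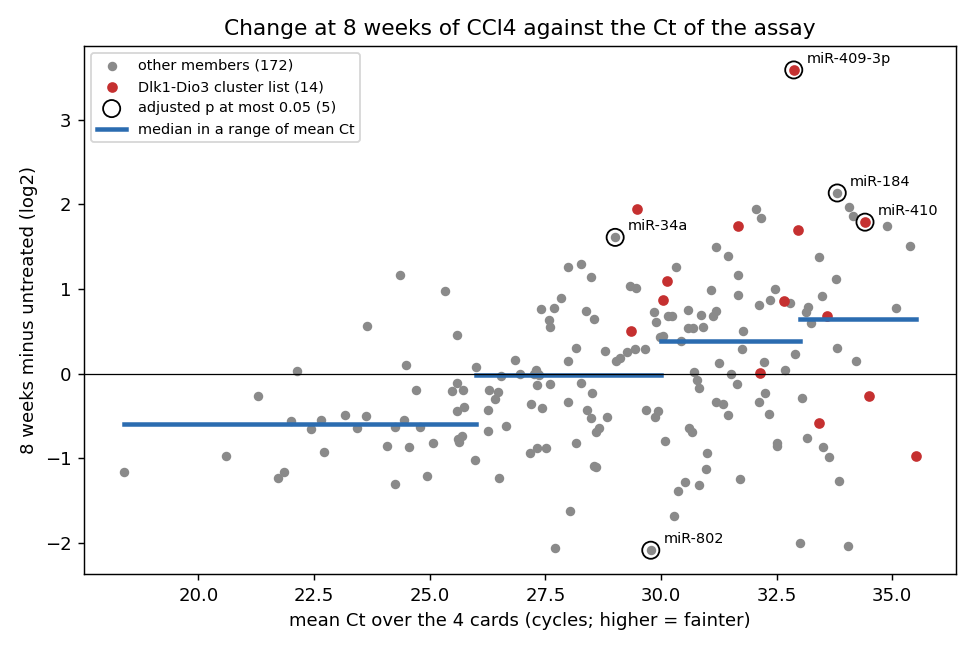
Log2 fold change at 8 weeks against untreated (vertical axis) of the 186 assays by their mean Ct over the 4 cards in cycles (horizontal axis, fainter to the right). Red points are the 14 assays of the Dlk1-Dio3 list, circles mark the 5 assays past the test, and the blue bars at -0.59, -0.02, 0.39 and 0.64 are medians in 4 ranges of Ct.

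The 12 highest changes among assays with a mean Ct below 35 whose groups did not overlap were, after the 4 higher calls, those of 8 miRNAs that did not pass the test. The Dlk1-Dio3 locus gave miR-379, miR-127 and miR-376a besides its 2 calls. miR-379 lay at -1.70 and -1.64 on the untreated cards and at 0.25 and 0.29 on the 8-week cards, the tightest pairs of the 3 (log2 fold change 1.95, SE 0.50, adjusted p = 0.104). miR-127, an antisense regulator of the placental gene Rtl1, lay at -4.14 and -3.38 on the untreated cards and at -1.82 and -2.22 on the 8-week cards (log2 fold change 1.75, SE 0.42, adjusted p = 0.104), and miR-376a at -5.88 and -4.20 on the untreated cards and at -3.07 and -3.63 on the 8-week cards (log2 fold change 1.70, SE 0.71, adjusted p = 0.189). Both had untreated cards further apart than their 8-week cards.

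miR-351 and miR-450a-5p belong to a cluster on the X chromosome that also holds miR-322, miR-503 and miR-542. For miR-351 the 8-week level of -2.10 and -2.54 stood against -2.78 and -5.73 on the untreated cards, so the difference rested largely on 1 faint untreated card (log2 fold change 1.94, SE 0.97, adjusted p = 0.247). For miR-450a-5p it was -2.86 and -2.08 against -3.78 and -4.82, with clear space between the pairs (log2 fold change 1.84, SE 0.62, adjusted p = 0.160).

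miR-741, an X-linked miRNA known from testis, lay at -6.66 and -5.95 on the untreated cards and at -4.27 and -4.62 on the 8-week cards. It had no value on the 1-week cards, its pairs were well apart, and it missed the test at 0.05 (log2 fold change 1.87, SE 0.39, adjusted p = 0.0813). The rat assay for miR-224, from an intron of the receptor gene Gabre, lay at -7.93 and -6.02 on the untreated cards and at -4.69 and -5.78 on the 8-week cards, with a large gap between the untreated cards (log2 fold change 1.75, SE 0.73, adjusted p = 0.189). miR-34b-3p, from a second p53-responsive miRNA gene, lay at -4.02 and -2.31 on the untreated cards and at -2.01 and -1.34 on the 8-week cards (log2 fold change 1.50, SE 0.63, adjusted p = 0.189), and its nearest untreated and treated cards were close to each other.

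At the low end stood miR-802 and 11 assays that did not pass the test. miR-210, the miRNA most closely tied to hypoxia-inducible factor, lay at 1.45 and 2.77 on the untreated cards and at 0.51 and -0.42 on the 8-week cards (log2 fold change -2.06, SE 0.52, adjusted p = 0.104). Its cards spread widely within each pair and still did not overlap. miR-375, which limits insulin secretion in pancreatic islets, lay at -4.29 and -4.19 on the untreated cards and at -7.25 and -5.31 on the 8-week cards, with 8-week cards far apart and a mean Ct of 34.0 (log2 fold change -2.03, SE 0.82, adjusted p = 0.189).

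miR-203, known for restraining the stem cell factor p63 in epidermis, lay at 2.91 and 2.90 on the untreated cards and at 1.79 and 1.55 on the 8-week cards. The pairs were tight and it came nearest to the threshold among the lower assays that missed it (log2 fold change -1.23, SE 0.27, adjusted p = 0.0813). The remaining low assays outside the hepatocyte list were rno-miR-345-3p at -1.39, miR-107 at -1.28, miR-7b at -1.27 and miR-491 at -1.24, with adjusted p-values of 0.112, 0.181, 0.438 and 0.181. miR-7b had -4.08 and -4.79 on the untreated cards and -4.91 and -6.51 on the 8-week cards, of which the first lay next to the untreated pair.

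**Figure D3:**
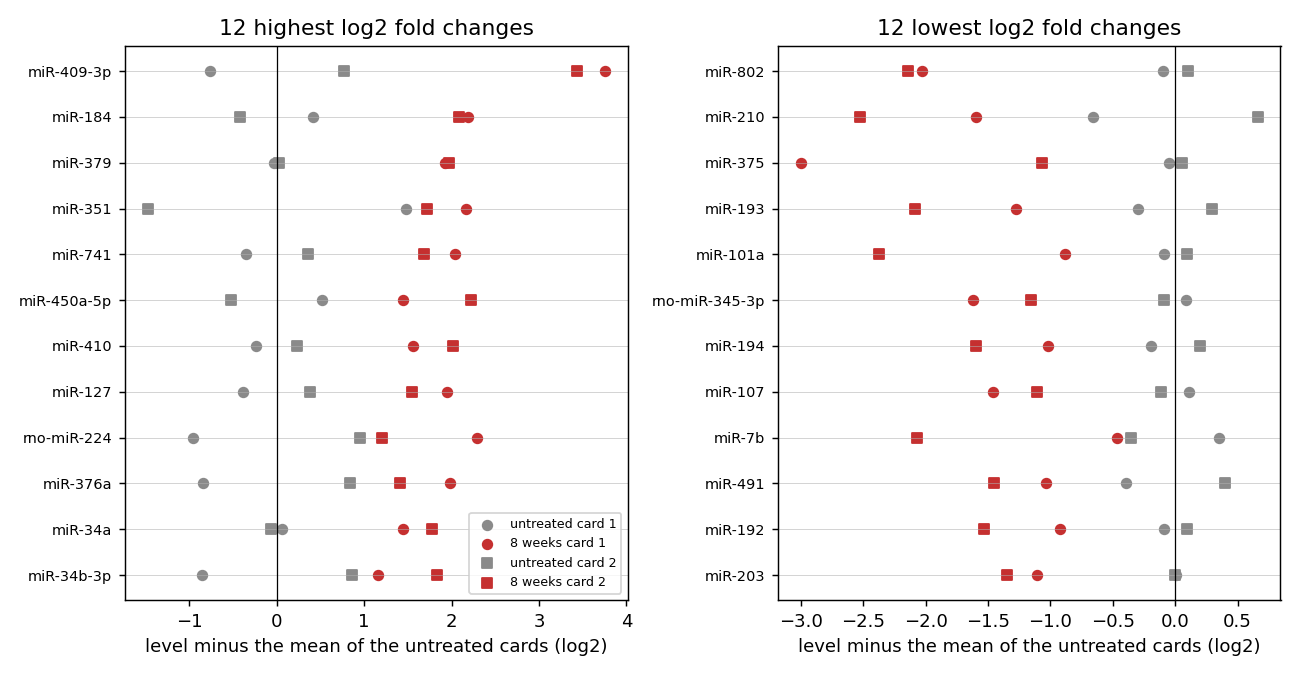
Levels on the 4 cards, as log2 difference from the mean of the untreated cards, of the 12 highest (left) and 12 lowest (right) changes among assays below a mean Ct of 35 whose groups do not overlap. Grey symbols are untreated cards, red symbols 8-week cards, circles replicate 1 and squares replicate 2. The assays were picked for this separation. miR-802 and miR-379 show tight pairs, and miR-351 and miR-7b have a treated card close to an untreated one.

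The labelled tissue was checked with hepatocyte miRNAs. The defining ones, miR-122, miR-192, miR-194 and miR-802, all had a Ct on the 4 cards, as did the 5 further assays of a wider list of miRNAs enriched in hepatocytes or liver. miR-122, the most abundant miRNA of hepatocytes, had a mean Ct of 22.1 and lay at 7.05 and 6.21 on the untreated cards and at 6.06 and 7.26 on the 8-week cards. Its groups overlapped and its log2 fold change was 0.04 (95% interval -1.18 to 1.25, adjusted p = 0.985), with a sign that turned to -0.06 with centring on the card median, -0.38 without untreated replicate 2 and -0.56 without 8-week replicate 2.

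The other hepatocyte miRNAs were mostly lower, and their difference from miR-122 was not tested. Of the 9 in the list, 7 were lower and 2 higher, beside 98 lower and 88 higher over all 186 assays, and the median was -1.23 against -0.02. The list was written with earlier results of these data known. miR-802 was the only call, where 0.538% of all assays were called lower. miR-192 shares its transcript with 1 of the 2 miR-194 genes. It lay at 7.59 and 7.77 on the untreated cards and at 6.75 and 6.14 on the 8-week cards (log2 fold change -1.23, SE 0.40, adjusted p = 0.148). miR-194 lay at 4.99 and 5.38 on the untreated cards and at 4.16 and 3.58 on the 8-week cards (log2 fold change -1.31, SE 0.34, adjusted p = 0.104). The pairs of both were apart by more than their own spread.

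miR-193 lay at -0.96 and -0.37 on the untreated cards and at -1.95 and -2.76 on the 8-week cards (log2 fold change -1.68, SE 0.57, adjusted p = 0.160). miR-101a, a repressor of the histone methyltransferase Ezh2, lay at 1.47 and 1.65 on the untreated cards and at 0.67 and -0.82 on the 8-week cards (log2 fold change -1.63, SE 0.51, adjusted p = 0.144), and its 8-week cards were far from each other. miR-365 (-0.88) and miR-148a (-0.67) were also lower without overlap. At the other end of the list, miR-455 had -2.97 and -4.49 on the untreated cards and -4.81 and -1.04 on the treated ones, and its difference of 0.81 turned to -1.07 without 8-week replicate 2. The summed level of the list was 8.54 and 8.45 on the untreated cards and 7.65 and 7.93 at 8 weeks. Such a sum adds assays of unequal efficiency and follows those with the lowest Ct, here miR-122 and miR-192, so it does not describe the list as a whole. Its part in the results of other lists was not tested.

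Of the 8 leukocyte miRNAs, 7 were higher, with a median log2 fold change of 0.67, and none passed the test. Over all 186 assays, 88 were higher, 2.15% were called higher and 27.4% were higher without overlap. miR-223, the neutrophil and macrophage miRNA, lay at 3.65 and 4.02 on the untreated cards and at 5.05 and 4.95 on the 8-week cards (log2 fold change 1.17, SE 0.31, adjusted p = 0.104). Its pairs were tight and well apart. miR-342-3p (0.97), miR-142-5p (0.92), miR-142-3p (0.77) and miR-155 (0.44), the last a regulator of inflammatory signalling, were higher without overlap. miR-146a and miR-146b, brakes on Toll-like receptor signalling, were at 0.57 and 0.56 with cards that overlapped. miR-150, of mature lymphocytes, was the exception at -0.03, a sign that turned with 4 of the 7 other scalings tried. The summed level of the list was 5.56 and 6.26 without treatment and 6.91 and 6.42 at 8 weeks, mostly from miR-146a, miR-223 and miR-342-3p. The part of these cells in the other results was not tested.

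Of the mesenchymal miRNAs, which mark stellate cells and fibroblasts, 4 of the 5 on the card were determined on the 4 cards. miR-214, an intronic partner of miR-199a, lay at 0.68 and 0.30 on the untreated cards and at 1.16 and 1.59 on the 8-week cards (log2 fold change 0.89, SE 0.37, adjusted p = 0.189), and miR-199a-3p was at 0.63. miR-145 and miR-143, which are linked to smooth muscle, were at -0.20 and -0.35, and both were above 0 with centring on the control RNAs. The fifth, miR-199a-5p, had a Ct on 1 untreated card only, at 33.97. The summed level of the list was 4.21 and 3.99 without treatment and 3.93 and 4.30 at 8 weeks, mostly from miR-145.

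miR-126-3p and miR-126-5p, both arms of an endothelial hairpin in the gene Egfl7, were lower together. miR-126-3p lay at 8.43 and 8.92 on the untreated cards and at 8.06 and 7.33 on the 8-week cards (log2 fold change -0.97, SE 0.41, adjusted p = 0.189) and miR-126-5p at 5.11 and 5.15 on the untreated cards and at 4.91 and 3.63 on the 8-week cards (log2 fold change -0.85, SE 0.46, adjusted p = 0.253). Neither overlapped, although 8-week replicate 1 of miR-126-5p was near the untreated level. Lower levels without overlap were seen for 33.3% of all 186 assays. Of the erythroid miRNAs, miR-451 was at 0.69 and miR-486 at -0.02, both with overlapping cards, and the sign of miR-486 turned in 7 of 19 alternatives.

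In the miR-200 family, which keeps the epithelial state by repressing Zeb1 and Zeb2 and marks bile duct cells in liver, the 4 members measured were all lower, but miR-200b and miR-200c were above 0 with centring on the control RNAs. miR-200a lay at 0.91 and 0.65 on the untreated cards and at -0.09 and -0.55 on the 8-week cards (log2 fold change -1.09, SE 0.35, adjusted p = 0.148) and miR-429 at 0.38 and 1.07 on the untreated cards and at -0.19 and -0.57 on the 8-week cards (log2 fold change -1.10, SE 0.61, adjusted p = 0.270). miR-200b was at -0.41 and miR-200c, whose cards overlapped, at -0.43. The fifth member, miR-141, had a Ct on both untreated cards (33.64 and 32.06) and on 1 of the 8-week cards (32.51).

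**Figure D4:**
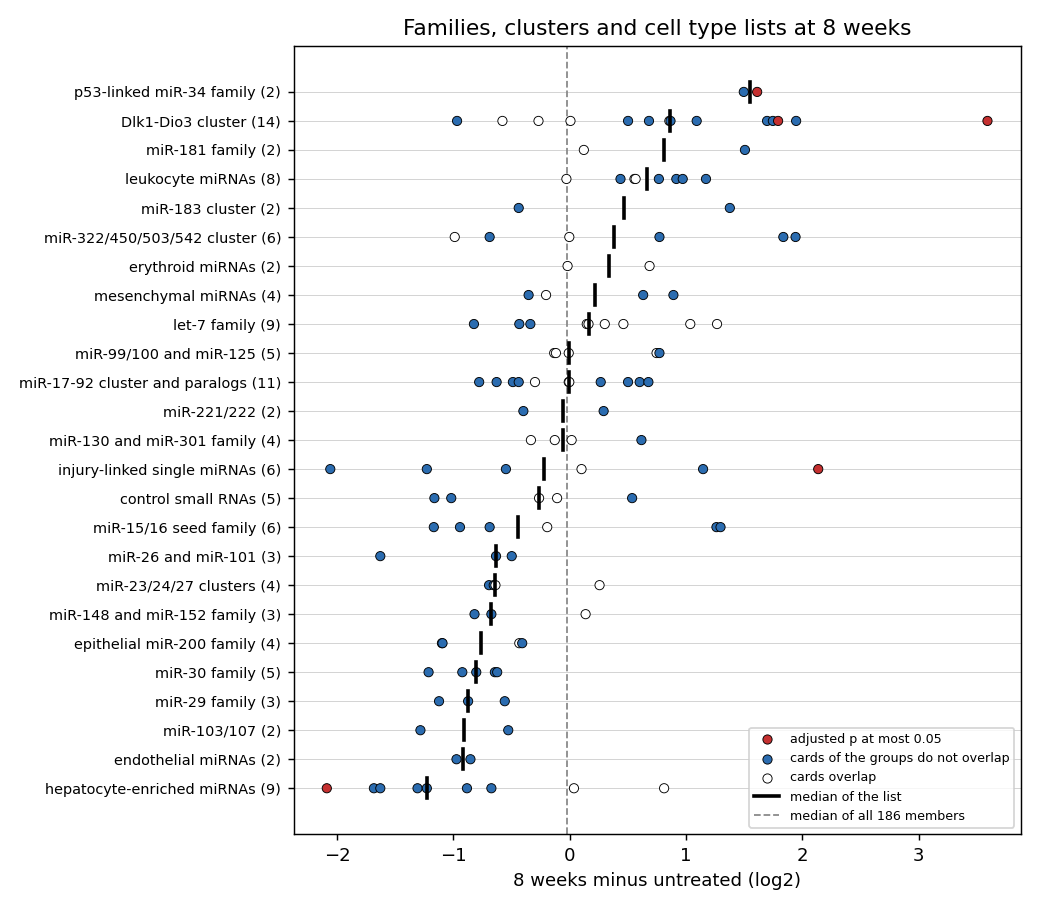
Log2 fold change at 8 weeks of every measured member of 25 lists of families, genomic clusters and cell type markers, with the number of members in brackets. Red points passed the test, blue points have groups that do not overlap, white points overlap, the black bar is the median of the list, and the dashed line is the median of all 186 assays (-0.02). The hepatocyte list lies lowest with a median of -1.23 and the miR-34 family highest with 1.55. All lists were written with earlier results of these data known.

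The miR-29 family, which represses collagens, elastin and fibrillin and is the subject of the study, was lower at 8 weeks for all 3 members, except that miR-29a stood at 0.00 after quantile normalization. None passed the test at 8 weeks. Their sequences are given because they differ little beyond the shared seed, miR-29a and miR-29c by 1 of 22 bases.
miR-29a: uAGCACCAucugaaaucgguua
miR-29b: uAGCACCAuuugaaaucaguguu
miR-29c: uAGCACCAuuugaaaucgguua

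miR-29a, with a mean Ct of 22.0, lay at 7.30 and 6.82 on the untreated cards and at 6.48 and 6.51 on the 8-week cards. It was 1.47-fold lower (log2 fold change -0.56, SE 0.28, adjusted p = 0.247). miR-29b lay at -1.56 and -1.70 on the untreated cards and at -2.29 and -3.23 on the 8-week cards (log2 fold change -1.12, SE 0.48, adjusted p = 0.189), and its 8-week cards were further apart than its untreated ones. miR-29c lay at 4.84 and 4.49 on the untreated cards and at 3.99 and 3.58 on the 8-week cards (log2 fold change -0.87, SE 0.34, adjusted p = 0.183). In each case both 8-week cards were below both untreated cards, which 33.3% of all assays also showed. At the earlier times, the same fit put miR-29c past the test against untreated liver. Its log2 fold change was -1.35 at 1 week (adjusted p = 0.0247) and -2.03 at 4 weeks (adjusted p = 0.00852). miR-29b passed at 1 week (-2.65, adjusted p = 0.00973) but not at 4 weeks (-0.76, adjusted p = 0.273). miR-29a passed at 4 weeks (-1.25, adjusted p = 0.0173) but not at 1 week (-0.80, adjusted p = 0.0765). Of all assays, 56 of 182 passed at 1 week and 51 of 186 at 4 weeks. Against 4 weeks, the 8-week level differed by 0.69 for miR-29a (95% interval 0.01 to 1.36), -0.36 for miR-29b (-1.50 to 0.78) and 1.16 for miR-29c (0.36 to 1.95), with adjusted p-values of 0.309, 0.730 and 0.186.

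Other miRNAs tied to fibrosis and regeneration showed no single direction. miR-21, which rises in many injured tissues, lay at 4.05 and 4.44 on the untreated cards and at 4.68 and 4.00 on the 8-week cards, with overlapping groups and a log2 fold change of 0.10 (95% interval -0.73 to 0.93). Its sign turned without untreated replicate 1 (-0.10) and without 8-week replicate 1 (-0.24). miR-132, which responds to CREB, lay at -0.17 and -0.37 on the untreated cards and at 0.61 and 1.13 on the 8-week cards (log2 fold change 1.15, SE 0.30, adjusted p = 0.104), with clear space between the pairs. miR-31 was at -0.55 without overlap. miR-130a was at -0.33 with overlapping cards and miR-26a at -0.50 without, and both were above 0 with centring on the control RNAs (0.18 and 0.01).

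miRNAs with the same seed share predicted targets, and sequence allowed the assays to be grouped by seed. Of 177 assays named as mouse miRNAs, 140 were matched by name to a RefSeq mature sequence, and 66 of these fell into 22 groups of 2 or more members with an identical seed. With the centring used here, all members were lower in 7 groups, all were higher in 2, and both directions occurred in 13, while centring on the control RNAs put miR-200b, miR-200c, miR-26a and both members of another of the 7 groups, miR-19a and miR-19b, above 0. The groups with 3 or more members lower throughout were miR-29, miR-30 and the trio of miR-200b, miR-200c and miR-429. All 5 miR-30 assays, including miR-30b and miR-30d without a matched sequence, were lower without overlap, from -1.21 for miR-30e to -0.62 for miR-30d, and none was called. Over all 186 assays, 33.3% were lower without overlap. miR-30c, with tight pairs, lay at 6.51 and 6.56 on the untreated cards and at 5.70 and 5.51 on the 8-week cards (log2 fold change -0.92, SE 0.26, adjusted p = 0.115). The pair of miR-103 (-0.53) and miR-107 (-1.28), encoded in pantothenate kinase genes, and that of miR-26a and miR-26b (-0.63) were lower too. The groups that were higher throughout were miR-146a with miR-146b, given above, and miR-181a (0.12) with miR-181c (1.51). miR-181a had overlapping cards and a sign that turned without untreated replicate 2 (-0.22) or 8-week replicate 2 (-0.71).

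The widest spread within a seed group was in the miR-15/16 family, which restrains the cell cycle through cyclins and Bcl2. The 6 sequences are shown because members with the same seed lay on both sides of 0.
miR-16: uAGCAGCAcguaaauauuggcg
miR-15a: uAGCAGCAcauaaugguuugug
miR-322: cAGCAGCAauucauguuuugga
miR-195: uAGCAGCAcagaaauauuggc
miR-497: cAGCAGCAcacugugguuugua
miR-15b: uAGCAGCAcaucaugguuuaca

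miR-16 lay at 7.05 and 7.98 on the untreated cards and at 6.89 and 5.79 on the 8-week cards (log2 fold change -1.17, SE 0.50, adjusted p = 0.189), and miR-15a, from the same cluster as 1 of the 2 miR-16 genes, at 2.10 and 2.09 on the untreated cards and at 1.35 and 0.94 on the 8-week cards (log2 fold change -0.94, SE 0.46, adjusted p = 0.238). Both were lower on both treated cards. miR-15b, from the cluster of the other miR-16 gene, lay at 0.40 and -0.69 on the untreated cards and at 0.72 and 1.57 on the 8-week cards (log2 fold change 1.30, SE 0.49, adjusted p = 0.181), and was higher on both. miR-497 lay at -1.97 and -2.37 on the untreated cards and at -1.30 and -0.53 on the 8-week cards (log2 fold change 1.26, SE 0.36, adjusted p = 0.115), while miR-195, its neighbour, was at -0.19 with overlapping cards, a value above 0 after quantile normalization or centring on the control RNAs. miR-322 was at -0.69. Beyond the seed, miR-15b and miR-16 differ at 8 of 22 positions.

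The let-7 family, a set of differentiation-linked repressors of growth genes, also split, with 6 of 9 higher and 3 lower (8 and 1 with centring on the control RNAs), and no member called. let-7g lay at 4.29 and 3.94 on the untreated cards and at 3.51 and 3.06 on the 8-week cards (log2 fold change -0.82, SE 0.31, adjusted p = 0.181), lower without overlap. let-7c lay at 1.05 and -0.74 on the untreated cards and at 0.54 and 2.29 on the 8-week cards (log2 fold change 1.27, SE 0.73, adjusted p = 0.289), and let-7b at -0.42 and -1.69 on the untreated cards and at -1.11 and 1.06 on the 8-week cards. For both of these the replicates of each group were more than 1 apart, so the groups overlapped and the difference in means rested on single cards. let-7b and let-7c differ at 1 of 22 positions, and assays of such close relatives can partly detect each other, which was not tested.
let-7g: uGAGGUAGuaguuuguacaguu
let-7c: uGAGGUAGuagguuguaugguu
let-7b: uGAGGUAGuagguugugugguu

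A further pair with 1 seed in opposite directions was miR-192, a hepatocyte miRNA described above, and miR-215, its relative in intestine and kidney, at -3.26 and -3.42 on the untreated cards and at -2.22 and -2.61 on the 8-week cards (log2 fold change 0.93, SE 0.40, adjusted p = 0.189). The mature forms differ at 3 of 21 positions.
miR-192: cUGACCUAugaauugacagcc
miR-215: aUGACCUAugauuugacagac

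**Figure D5:**
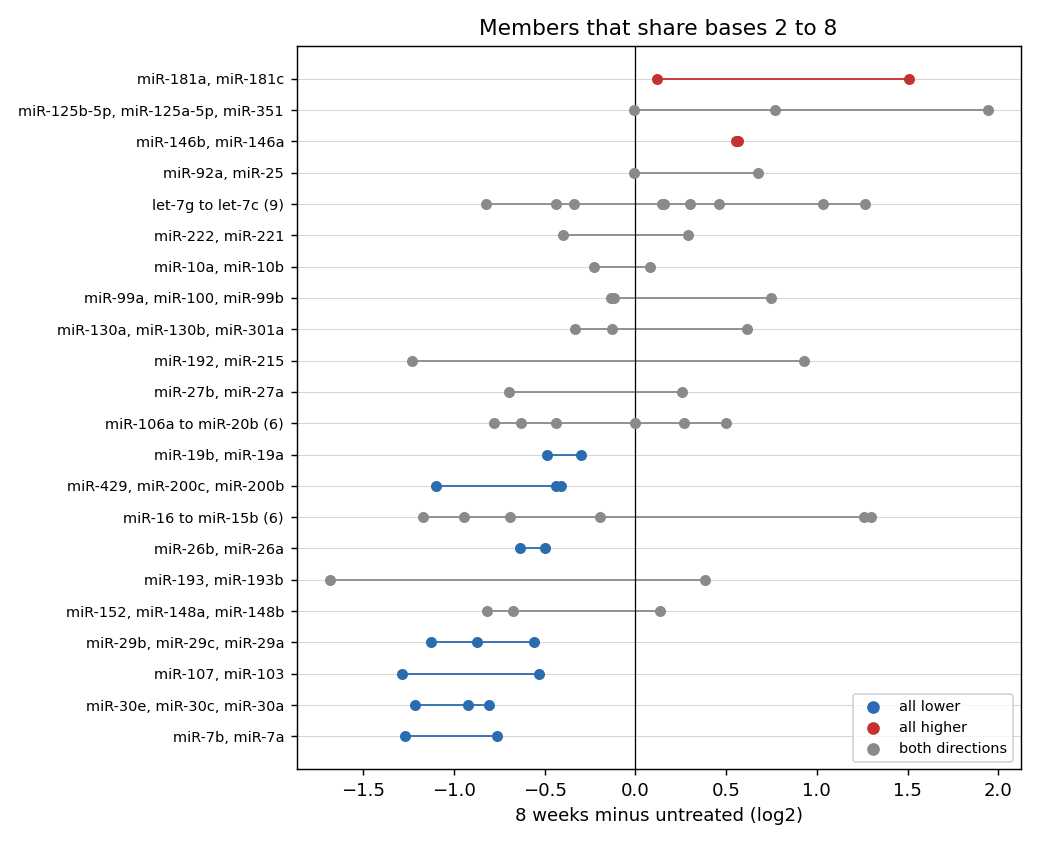
Log2 fold change at 8 weeks of the 66 assays in 22 groups with the same bases 2 to 8, ordered by group median. Lines span each group, in blue where all members are lower (7 groups), red where all are higher (2) and grey where both directions occur (13). The miR-15/16 group runs from -1.17 for miR-16 to 1.30 for miR-15b.

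The remaining families held members on both sides of 0, and none of these was called. In the miR-17-92 cluster and its paralogs, which promote proliferation, 4 of 11 members were higher and 7 lower (9 and 2 with centring on the control RNAs) with a median of -0.01, from -0.78 for miR-106a to 0.68 for miR-25. The family of miR-130 and miR-301 ran from miR-130a to miR-301a (0.62), and miR-99, miR-100 and miR-125 from miR-99a (-0.13) to miR-125a-5p (0.77), and with centring on the control RNAs all members of both families were above 0. miR-221 was at 0.29 and miR-222 at -0.40, and the latter was above 0 after quantile normalization or centring on the control RNAs. In the miR-23/24/27 clusters miR-27b was at -0.69 and miR-27a at 0.26. In the family of miR-148 and miR-152, miR-152 was at -0.82 and miR-148b at 0.14, the latter below 0 after quantile normalization. miR-183, with a mean Ct of 33.4, was at 1.38 and miR-182, of the same cluster, at -0.44, a value that was 0.07 with centring on the control RNAs. The untreated cards of miR-183 lay at -4.34 and -6.30, and its difference was 0.40 without untreated replicate 2. The third of that cluster, miR-96, had no Ct on the 8-week cards.

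Genomic position gave another grouping. The Dlk1-Dio3 list counted 44 assays on the card, of which 14 were determined on the 4 cards, 12 on some of them and 18 on none. Of the 14, 11 were higher and 3 lower, with a median of 0.86, and 2 were called higher, against 2.15% over all 186 assays. The groups did not overlap for 9 of the higher ones, against 27.4% over all. Their mean Cts ran from 29.4 for miR-494 to 35.5 for miR-337-5p, and high Ct went with higher levels over all assays, as given above. The part of this in the list was not tested. The low end was miR-337-5p at -6.94 and -5.55 on the untreated cards and at -6.96 and -7.48 on the 8-week cards (log2 fold change -0.97, SE 0.59, adjusted p = 0.308), and the nearest cards of its groups almost coincided. miR-411 (1.09), miR-667 (0.87), miR-434-3p (0.68) and miR-494 (0.50) were higher without overlap. miR-433, at 0.01, changed sign with 2 of the other centrings, and miR-337-3p, at -0.27, with centring on the control RNAs.

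By chromosome, RefSeq's annotation placed 150 of the assays on 1 chromosome. The chromosomes with 10 or more assays were 4, 11, 12 and X. The 16 assays on chromosome 12, most of them of the Dlk1-Dio3 locus, had a median of 0.77, with 11 higher. The 17 on chromosome 11 had a median of 0.62, the 24 on the X chromosome one of 0.40 and the 10 on chromosome 4 one of -1.01. On the X chromosome none of the 24 was called, beside 2.69% over all 186 assays, a share too low for this to mark that chromosome. Its cluster of miR-322, miR-351, miR-450a, miR-503 and miR-542 was split, from -0.99 for miR-542-5p, a value that turned to 0.14 without 8-week replicate 2, to 1.94 for miR-351.

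Where more than 1 assay reported on a hairpin or a miRNA, the values show how far assays differ. The 2 arms of miR-142 were at 0.92 and 0.77, and those of miR-126 at -0.97 and -0.85, close to each other. Those of miR-542 were at -0.99 and 0.77 and those of miR-337 at -0.97 and -0.27. The arms of miR-331 were the furthest apart, with miR-331-3p at 0.04 and miR-331-5p at 1.97. The latter lay at -3.38 and -9.17 on the untreated cards and at -4.35 and -4.27 on the 8-week cards, with a wide gap between the untreated cards. Its untreated replicate 1 was above both 8-week cards. The higher level, and with it the place of this pair, rested on untreated replicate 2, with a Ct of 37.77. The mouse and rat assays for miR-351 gave 1.94 and 0.79, for miR-224 1.00 and 1.75, and for miR-339-3p -0.11 and -1.32. In each of these 3 mouse and rat pairs the wider 95% interval contained both values, such as that of miR-351, from -0.45 to 4.33.

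Some small RNAs were seen in only 1 of the 2 groups compared. 3 assays had a Ct on both 8-week cards and on neither untreated card. miR-382, of the Dlk1-Dio3 locus, had Cts of 31.51 and 32.89, miR-467c of 33.02 and 32.81, and miR-669a of 31.99 and 33.93. The last 2 belong to a large rodent cluster in the gene Sfmbt2. In the other direction, miR-9, a neural miRNA, had Cts of 34.70 and 34.65 on the untreated cards, and miR-96 of 35.65 and 35.96, and neither had a value at 8 weeks.

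Assays missing from single cards were more common. A Ct on 1 treated and no untreated card occurred for 20 assays, and the reverse for 14. Another 9 assays missed 1 untreated card and 14 missed 1 treated card. A missing Ct gives no level, so no fold is given. At 4 weeks miR-382 had a Ct on 1 card, and miR-467c and miR-669a on none, although miR-467c was determined on both 1-week cards. miR-669a had a Ct on 1 of the 1-week cards (33.11). miR-9 (36.03) and miR-96 (34.47) each had a Ct on 1 of the 4-week cards and on no 1-week card.

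The control RNAs of the card were not constant. U6, the assay with the lowest Ct, lay at 10.58 and 11.36 on the untreated cards and at 10.29 and 9.31 on the 8-week cards (log2 fold change -1.16, SE 0.45, adjusted p = 0.187) and U87 at 3.15 and 3.45 on the untreated cards and at 2.52 and 2.03 on the 8-week cards (log2 fold change -1.02, SE 0.30, adjusted p = 0.119). Both were lower at 8 weeks without overlap, although U6 stood at 0.00 after quantile normalization. snoRNA202 (-0.26) and snoRNA135 (-0.11) had overlapping cards, and both were above 0 after quantile normalization or centring on the control RNAs themselves. Y1 was at 0.54.

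Finally, the 8-week levels were compared directly with the earlier times. Against 4 weeks, limma called 0 of 186 assays (0%), with 26 at an unadjusted p of 0.05 or less. The widest difference, singled out after its value was seen, was that of miR-685, which lay at 1.39 and 1.29 at 4 weeks and at -3.59 and -1.60 at 8 weeks (difference -3.94, 95% interval -5.40 to -2.47, adjusted p = 0.0647). Its untreated cards, at -2.00 and -2.51, were between the 8-week cards, so the 4-week cards were the ones that stood apart. miR-223 lay at 6.69 and 6.43 at 4 weeks, above its 8-week cards (difference -1.56, 95% interval -2.29 to -0.83, adjusted p = 0.0911).

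The hepatocyte miRNAs miR-192 and miR-193 had their lowest levels at 4 weeks. miR-192 lay there at 5.34 and 4.41 (difference 1.57, 95% interval 0.63 to 2.51, adjusted p = 0.149) and miR-193 at -3.35 and -4.52 (difference 1.58, 95% interval 0.22 to 2.94, adjusted p = 0.295). For both, the 8-week cards were between the 4-week and the untreated cards. These values do not show that 4 and 8 weeks are alike, since the intervals allow differences of more than 1 in many assays.

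Against 1 week, 46 of 182 assays (25.3%) differed, 22 higher and 24 lower at 8 weeks. That count was 4 without 8-week replicate 2 and to 5 without either 1-week card, and 41 without 8-week replicate 1. Centring on the control RNAs gave 57, of which 46 were higher and 11 lower, so the split depended on the scale. U6 lay at 13.49 and 12.90 at 1 week against 10.29 and 9.31 at 8 weeks, and let-7c at -2.19 and -1.90 against 0.54 and 2.29, in opposite directions.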

How the data were processed

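TaqMan Array Rodent MicroRNA A Cards were run on liver RNA isolated with a mirVana kit and reverse transcribed without pre-amplification. The authors deposited threshold cycles (Ct), not normalized, for 8 cards in 4 groups of 2, and the groups were taken from the labels. A second deposited table, of fold changes made after normalization to the geometric mean of each card, was not used. Here each card was centred on the mean Ct over the 168 assays determined on all 8 cards, which differs from that normalization. Contrasts were fitted with limma 3.58.1 in R 4.3.3 (lmFit, eBayes) over all 8 cards, with values missing on 1- or 4-week cards left missing, and p-values were adjusted by the Benjamini-Hochberg method over all assays tested. The fit was tested on simulated data. Assays were named if they passed the test, if they were among the 12 highest or lowest log2 fold changes below a mean Ct of 35 without overlap, if they were miR-29, miR-21, miR-26a, miR-122, miR-130a or control RNAs, if they ended a list, if they were seen in 1 group only, or if they had one of the 5 lowest Cts. Others were added after their values were seen. The members and lists were chosen with earlier results of these data known. Depth is not defined for Ct values, and the number of cards limits the precision. The sources used here name no genome build for the cards, and no coordinates are given. Mature sequences were matched by name to RefSeq (GRCm38.p6), with arms assigned for older names, and were found for 140 of 177 mouse assays. The 4 rat assays and 5 control RNAs were not matched.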

Additional observations from a re-analysis of the deposited data

Results flagged for a closer look

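The change from untreated liver appeared unequal between times, with 46 assays differing between 8 weeks and 1 week in the fit with limma. This count was much smaller with several of the alternatives given below. Among the assays named by the rule, 11 were lower at 8 than at 1 week, given as log2 differences of 8 minus 1 week. They were U6 (-3.39), miR-410 (-2.68), miR-409-3p (-2.41), miR-337-5p (-2.28), miR-16 (-1.85), miR-150 (-1.85), miR-126-3p (-1.46), miR-222 (-1.45), miR-203 (-1.36), miR-30e (-1.27) and miR-106a (-1.11). Another 7 were higher at 8 weeks, namely let-7c (3.46), miR-183 (2.38), miR-451 (1.69) and miR-27b (1.00) among the miRNAs, and Y1 (1.96), snoRNA202 (1.28) and U87 (1.05) among the control RNAs. Against untreated liver, the 1-week differences were 2.23 for U6, 0.68 for miR-16, 0.49 for miR-126-3p and 0.13 for miR-203, and all 4 were below 0 at 8 weeks, although U6 stood at 0.00 after quantile normalization. Also above 0 at 1 week and below 0 at 8 weeks were miR-337-5p (1.31 at 1 week), miR-150 (1.82), miR-222 (1.05), miR-30e (0.05) and miR-106a (0.33). The 8-week signs of miR-150 and miR-222 turned with some scalings. miR-410 and miR-409-3p were above 0 at both times.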

How the results depend on the processing

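The count of 5 assays changed at 8 weeks was 1 with centring on all assays determined on the card, on their geometric mean or on the card median, and 1 with no centring. It was 2 with mean Ct below 32, 3 with a replicate block, 8 with a variance trend in eBayes (3 of the 5 among them), 0 with Ct 40 for undetermined values (36 at an unadjusted p of 0.05 or less) and 0 with only the groups compared in the fit (35 at that p). It ranged from 0 to 1 with 1 card left out, where the lone card was assumed to vary like the other groups. Against 4 weeks, the count of 0 was 1 with each of the first 3 centrings, 7 with quantile normalization, 4 with mean Ct below 32, 3 with the trend, 4 at an adjusted p of 0.10 and 0 to 2 with 1 card left out. Against 1 week, the count of 46 was 26 with centring on all determined assays, 28 on their geometric mean, 20 with quantile normalization, 8 with no centring, 3 with Ct 40, 20 with the replicate block and 4 to 41 with 1 card left out. The median log2 fold change of all members was -0.024, 0.488 with centring on the control RNAs and -0.152 to 0.077 otherwise.

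Numbers shared by cards of different groups mark no pairing in the labels, and the differences of replicate 1 from 2 in the untreated and 8-week groups correlated over assays with r = -0.375. With the untreated numbers crossed, an alternative chosen after seeing the data, the replicate block gave 7 calls. Of the comparisons of the named assays with their reported values, 124 moved by more than the spread between cards, 53 lost and 12 gained a call, and 1135 did none of these. In 42 of all these comparisons the sign turned or the value came to 0, none of them for an assay called at 8 weeks. The number of cards limits what could be resolved.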
